A study of Mus musculus with 8 samples.

Results

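Metallothioneins and zinc transporters were followed in liver sinusoidal endothelial cells, the fenestrated lining of the liver's capillaries, after an intravenous load of iron. The set was chosen by name, with earlier results of these data known, and held 10 genes. They are the metallothioneins *Mt1* and *Mt2*, the zinc-sensing factor *Mtf1*, the SLC30 exporters *Slc30a1*, *Slc30a5*, *Slc30a7* and *Slc30a10*, and the SLC39 importers *Slc39a1*, *Slc39a4* and *Slc39a10*. Of these, 9 matched a target among the 23930 in the count files and 8 passed the low-count filter, which left 14601 targets in all. *Mt2* was not analysed here, and *Slc30a10* was under the filter. The cells came from wild-type, young female Balb/c mice, either 5 h after 150 µg of iron citrate (4 libraries) or 5 h after 0.05 M citrate buffer (4 libraries), and each title names 1 mouse per library. They had been sorted on 3 surface proteins (CD45-dim, STAB2-high, CD146-high), so a value describes the sorted fraction and not the whole liver. Libraries were made with an amplicon kit in which a gene is read through 1 short amplicon, and CPM (counts relative to the size of the library, after scaling between libraries) are therefore compared between groups for a gene and not between genes.

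Metallothioneins are small cysteine-rich proteins that bind zinc and copper in the cytosol. MTF1 is a transcription factor that senses zinc. When zinc is high it binds metal response elements and turns on the metallothioneins and the zinc exporter gene *Slc30a1*, and in mouse liver it holds down the importer gene *Slc39a10*. SLC30 proteins move zinc out of the cytosol, to the outside or into organelles, and SLC39 proteins move it in. Metallothionein genes are also known to answer to oxidants, glucocorticoids and interleukin 6.

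After iron citrate *Mt1* rose 10.1-fold and *Slc39a10* fell to 0.425 of its buffer level, and the other 6 tested genes did not pass the test. The test was edgeR's quasi-likelihood F-test with Benjamini-Hochberg adjustment over all 14601 targets, and genes with an adjusted p under 0.05 count as called. Over all targets 77 genes (0.527%) were called higher and 4 (0.0274%) lower, 0.555% together, and among the 8 tested genes 1 was called higher and 1 lower. At an unadjusted p under 0.05 there were 4 of 8, *Mt1*, *Slc39a10*, *Slc30a1* and *Mtf1*, beside 14.6% of all targets. In the same 4 genes the 4 iron citrate libraries lay to 1 side of the 4 buffer libraries, beside 8.64% of all targets. The median log2 fold change of the 8 genes was 0.12, beside -0.01 over all targets.

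**Figure D1:**
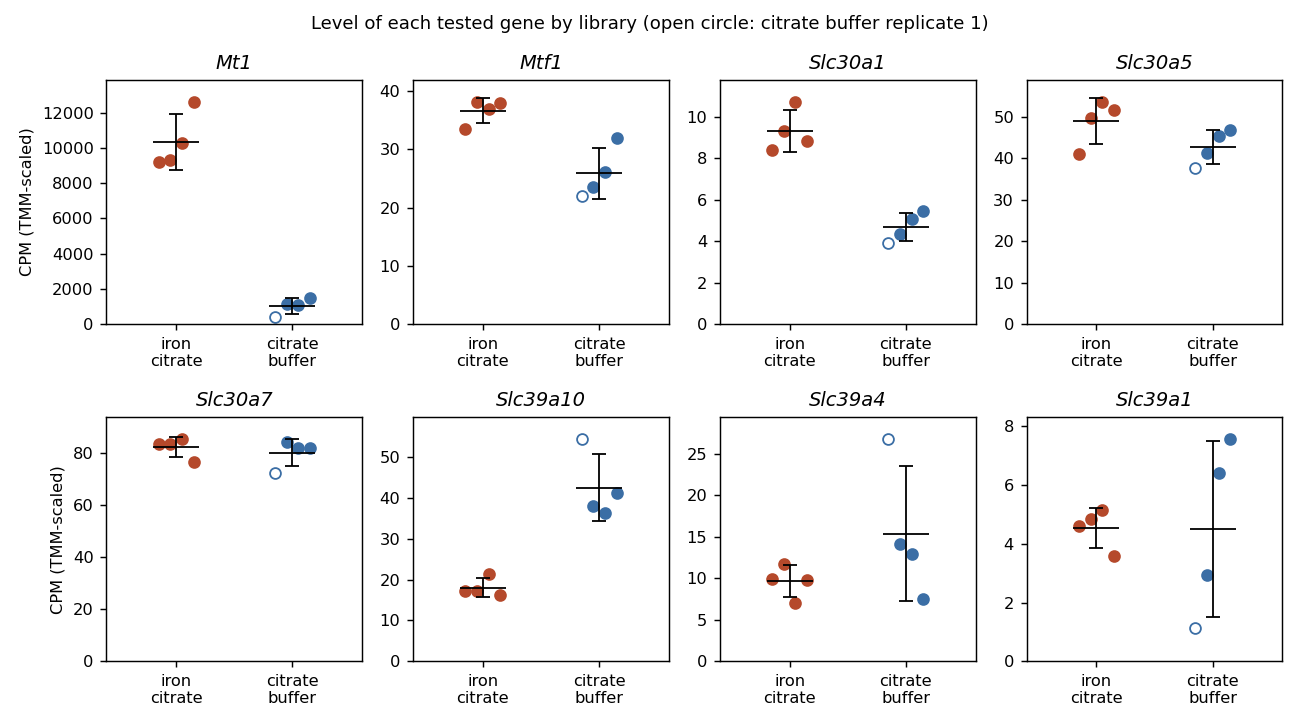
CPM of the 8 tested genes in each library, with iron citrate left of citrate buffer, a circle per library, and the mean with its SD (n = 4 each) as a line with bars. The vertical axes start at 0 and differ between genes. The groups do not overlap for *Mt1*, *Mtf1*, *Slc30a1* and *Slc39a10*, and the open circle, citrate buffer replicate 1, is the lowest or the highest buffer library in each panel.

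One buffer library stood apart, and the log2 fold changes of the 8 tested genes are also given without it. The median correlation of citrate buffer replicate 1 with its own group was 0.839, beside 0.962 to 0.981 for the other 7 libraries. Gene families chosen by name as mostly intronless and mostly silent in liver are called the intronless silent families below. They are keratin-associated proteins and olfactory, vomeronasal type 1 or bitter taste receptors. These families made up 2.42% of the counts of citrate buffer replicate 1, 0.983% in citrate buffer replicate 2 and 0.295% to 0.611% in the other 6 libraries. The libraries held 7969520 to 11314659 counts on targets. Of 12 markers of sinusoidal endothelium all were measured and none was called (1 at an unadjusted p under 0.05, 0 by DESeq2 and 0 by limma-voom). Together the 12 markers summed to 26486 to 29338 CPM after iron citrate and to 15794 to 32892 CPM after buffer, a wider range. The lectin gene *Clec4g* was at 10022 ± 966 CPM after iron citrate and 9476 ± 1996 CPM after buffer (SD, n = 4 each). It was lowest in citrate buffer replicate 1, at 6867 CPM. Bulk counts cannot tell fewer cells of a type from less RNA per cell.

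*Mt1* had 9191, 9318, 10307 and 12624 CPM in iron citrate replicates 1 to 4, against 373, 1164, 1082 and 1480 CPM in citrate buffer replicates 1 to 4. The lowest iron citrate library was above the highest buffer library, and citrate buffer replicate 1 was the lowest of all. The counts behind these values were 80887 to 137425 after iron citrate and 3916 to 13942 after buffer. Counting error was therefore small beside the spread between the libraries of a group. That spread was 15.3% of the mean after iron citrate and 45.6% after buffer. The *Mt1* amplicon took 1.00% ± 0.16 of all counts on targets after iron citrate and 0.103% ± 0.043 after buffer (SD, n = 4 each). Its log2 fold change was 3.34, with SE 0.38, a 95% interval of 2.49 to 4.19 and an edgeR adjusted p of 0.0032. In size this was rank 9 among the rises of all 14601 targets. Without citrate buffer replicate 1 the log2 fold change was 3.06 (SE 0.17, edgeR adjusted p = 6.67e-08), in a fit that called 1.76% of all targets. With citrate buffer replicates 1 and 2 both left out it was 3.02 (edgeR adjusted p = 2.25e-09), in a fit that called 1.9% of all targets. *Mt1* and *Mt2* lie side by side on chromosome 8 and are close in sequence, so a share of the *Mt1* counts from its neighbour cannot be told apart.

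The promoters of the 3 genes with the largest fold changes in the set are shown because MTF1 is known to act on them in mouse. Promoter windows were taken from RefSeq (GRCm38.p6) and run from 250 bases before to 50 bases after the annotated start. Of the 9 genes with a target 8 had a window, and *Slc39a4* had no entry. The 250 bases before the start are printed, 5′ to 3′ along the gene, and the matches to the 2 motifs searched are in capitals.
Mt1, chr8:94178839-94179088, plus strand: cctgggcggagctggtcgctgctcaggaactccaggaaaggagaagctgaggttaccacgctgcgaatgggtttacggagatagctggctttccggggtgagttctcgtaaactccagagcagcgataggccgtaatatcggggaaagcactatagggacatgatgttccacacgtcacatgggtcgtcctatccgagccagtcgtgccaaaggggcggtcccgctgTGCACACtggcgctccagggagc
Slc30a1, chr1:191906531-191906780, plus strand: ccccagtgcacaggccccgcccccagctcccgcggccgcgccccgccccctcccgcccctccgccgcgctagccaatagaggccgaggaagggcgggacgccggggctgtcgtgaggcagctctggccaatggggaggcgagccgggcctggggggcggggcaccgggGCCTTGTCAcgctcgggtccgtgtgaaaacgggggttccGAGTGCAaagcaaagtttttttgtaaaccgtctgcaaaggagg
Slc39a10, first start, chr1:46925777-46926026, minus strand: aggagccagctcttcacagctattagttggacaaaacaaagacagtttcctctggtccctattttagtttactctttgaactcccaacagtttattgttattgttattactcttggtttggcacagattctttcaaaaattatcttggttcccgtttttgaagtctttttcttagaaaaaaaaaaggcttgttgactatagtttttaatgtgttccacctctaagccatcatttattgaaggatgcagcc
Slc39a10, second start, chr1:46853619-46853868, minus strand: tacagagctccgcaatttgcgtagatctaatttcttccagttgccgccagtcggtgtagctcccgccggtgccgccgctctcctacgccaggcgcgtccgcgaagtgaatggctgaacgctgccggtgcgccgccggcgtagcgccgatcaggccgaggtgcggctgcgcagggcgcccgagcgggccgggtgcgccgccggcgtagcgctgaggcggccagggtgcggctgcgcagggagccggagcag

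The core of the metal response element was searched on both strands as TGCACNC and TGCGCNC, with overlapping matches counted as 1 site. In the 300 bases *Mt1* held 3 such sites, 1 of them in the printed bases (TGCACAC) and 2 in the 50 bases after the annotated start. At least 3 sites were held by 1.31% of all 32851 windows in the table. *Slc30a1* held 2, 1 of them in the printed bases on the opposite strand (GAGTGCA), and 6.14% of all windows held at least 2. Neither window of *Slc39a10* held one, nor did those of *Mtf1*, *Slc30a7* and *Slc39a1*, whereas *Slc30a10* held 2 and *Slc30a5* held 1, and 25.7% of all windows held at least 1. The core of the antioxidant response element, the site of NRF2, was searched on both strands as TGACNNNGC. It matched once each in *Slc30a1* (GCCTTGTCA, in capitals above), *Slc30a5* and *Slc39a1* and not in the windows of the other genes, beside 12.4% of all windows. It did not overlap a metal response core in these genes. GENCODE M21 lists 3 *Mt1* transcripts, and 2 of them start 122 and 152 bases downstream of the RefSeq start, beyond this window. The bases directly before those 2 starts were not searched for either motif. The presence or absence of a site in *Mt1* therefore holds for this window only. The same limit applies to the windows of *Slc39a10* and of the other genes. Which start these cells used was not measured. A match is a stretch of letters and was not measured as a bound site.

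*Mtf1* itself was at 33.5, 38.1, 37.0 and 37.9 CPM in iron citrate replicates 1 to 4, against 21.9, 23.5, 26.1 and 31.9 CPM in citrate buffer replicates 1 to 4. The groups did not overlap, but the gap between them, 31.9 to 33.5 CPM, was narrow. The log2 fold change was 0.51, with SE 0.15 and a 95% interval of 0.16 to 0.85, and the edgeR adjusted p of 0.302 did not pass. Without citrate buffer replicate 1 it was 0.44 (edgeR adjusted p = 0.181). It also missed the threshold in all 18 alternative fits (adjusted p between 0.0748 and 0.595). These are mRNA levels, and zinc, MTF1 protein and its binding to DNA were not measured.

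Among the exporters, *Slc30a1*, which moves zinc across the plasma membrane, had 8.41, 9.33, 10.7 and 8.82 CPM in iron citrate replicates 1 to 4. In citrate buffer replicates 1 to 4 it had 3.90, 4.34, 5.08 and 5.43 CPM. Each iron citrate library was above each buffer library, on 81 to 102 counts after iron citrate and 41 to 57 after buffer. The log2 fold change was 0.99, with SE 0.28, a 95% interval of 0.38 to 1.61 and an edgeR adjusted p of 0.252, so it was not called. It was called higher by DESeq2 (log2 fold change 0.97, adjusted p = 0.0011) and with the share of counts on the intronless silent families as a covariate (0.83, adjusted p = 0.039), fits that called 2.5% and 2.24% of all targets, and in none of the other 16 alternative fits. The log2 fold change lay between 0.83 and 1.07 in all 18, and was 0.91 without citrate buffer replicate 1 (edgeR adjusted p = 0.111).

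The organelle exporters *Slc30a5* and *Slc30a7*, which load zinc into the early secretory pathway, did not pass the test. *Slc30a5* was at 41.0 to 53.6 CPM after iron citrate and 37.7 to 46.8 CPM after buffer, with a log2 fold change of 0.20 (95% interval -0.11 to 0.50, edgeR adjusted p = 0.439), and of 0.14 without citrate buffer replicate 1 (adjusted p = 0.668). *Slc30a7* was at 82.0 ± 3.77 CPM after iron citrate and 80.0 ± 5.24 CPM after buffer (SD, n = 4 each). Its groups overlapped and its log2 fold change of 0.04 had the narrowest interval of the 8, from -0.21 to 0.28 (edgeR adjusted p = 0.879). Its sign turned with library totals, upper-quartile factors or the silent-family covariate, and without citrate buffer replicate 1 (log2 fold change -0.00981, adjusted p = 0.974). *Slc30a10*, known as a manganese exporter of liver and gut, had 1, 0, 0 and 1 counts in iron citrate replicates 1 to 4 and 0, 1, 0 and 0 counts in citrate buffer replicates 1 to 4. These are at or under the limit of 3 counts, which in these libraries corresponds to 0.251 to 0.398 CPM, so no fold change is given.

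*Slc39a10*, an importer of the plasma membrane, had 17.2, 17.3, 21.4 and 16.3 CPM in iron citrate replicates 1 to 4, against 54.3, 38.1, 36.3 and 41.1 CPM in citrate buffer replicates 1 to 4. The highest iron citrate library was well below the lowest buffer library, and citrate buffer replicate 1 was the highest of all. The log2 fold change was -1.23, with SE 0.18, a 95% interval of -1.62 to -0.84 and an edgeR adjusted p of 0.0107. It was 1 of the 4 genes called lower, 0.0274% of all targets. Without citrate buffer replicate 1 the log2 fold change was -1.09 (edgeR adjusted p = 0.000668), and -1.11 with the share of silent families as a covariate (adjusted p = 0.000862). Among the fits that left out 1 library, the call was lost without iron citrate replicate 1 (adjusted p = 0.0607), 2 (0.0644) or 4 (0.0578), at log2 fold changes of -1.21, -1.21 and -1.18.

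*Slc39a4*, the importer by which the gut takes up dietary zinc, had 9.97, 11.7, 7.04 and 9.83 CPM in iron citrate replicates 1 to 4, against 26.8, 14.2, 12.9 and 7.55 CPM in citrate buffer replicates 1 to 4. The groups overlapped, and citrate buffer replicate 1 was the highest library. The log2 fold change of -0.67 (95% interval -1.50 to 0.15, edgeR adjusted p = 0.347) was not called. It was -0.27 without citrate buffer replicate 1 (adjusted p = 0.673) and -0.08 with the silent-family covariate (adjusted p = 0.898). The 2 buffer libraries with the most counts on the silent families were also the 2 with the most *Slc39a4*.

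**Figure D2:**
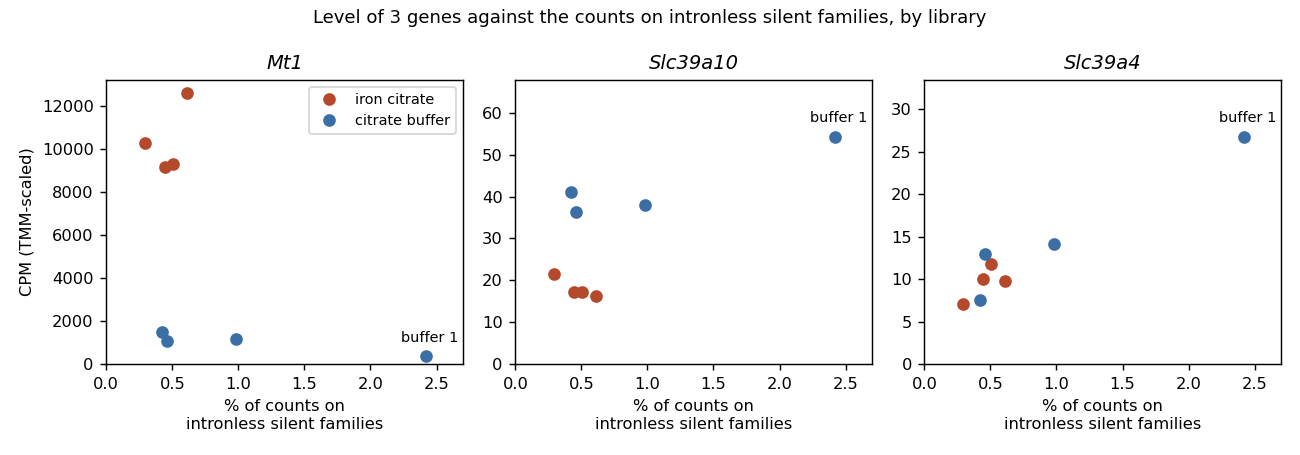
CPM of *Mt1*, *Slc39a10* and *Slc39a4* (vertical axes, from 0) against the percent of counts on intronless silent gene families (horizontal axis), a circle per library, iron citrate in red and citrate buffer in blue. Citrate buffer replicate 1, at 2.42%, lies apart in each panel, and the 6 libraries with 0.295% to 0.611% still separate by group for *Mt1* and *Slc39a10* but not for *Slc39a4*.

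*Slc39a1*, a widely expressed importer of the plasma membrane, had 4.59, 4.84, 5.15 and 3.58 CPM in iron citrate replicates 1 to 4. In citrate buffer replicates 1 to 4 it had 1.14, 2.92, 6.41 and 7.55 CPM, from 12 to 72 counts. The iron citrate libraries lay within the range of the buffer libraries. Its log2 fold change was 0.02 with the widest interval of the 8, from -1.14 to 1.17 (edgeR adjusted p = 0.988), which includes a 2-fold change in either direction, and its sign turned in 11 alternative fits. Without citrate buffer replicate 1 it was -0.30 (edgeR adjusted p = 0.729).

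**Figure D3:**
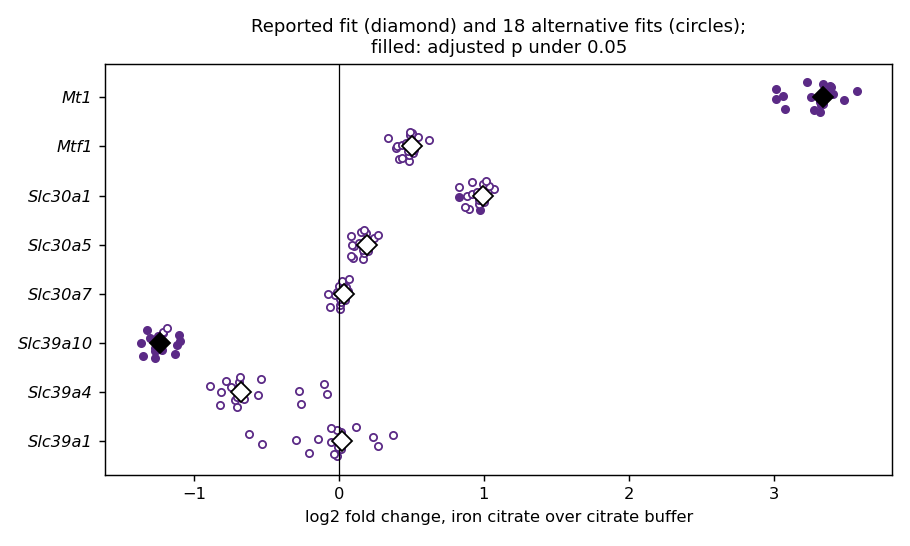
Log2 fold changes, iron citrate over citrate buffer (horizontal axis), of the 8 tested genes in the reported fit (diamonds) and in the alternative fits (circles), filled where the adjusted p was under 0.05. *Mt1* was called in all 18 alternatives at 3.01 to 3.57, *Slc39a10* lay between -1.36 and -1.09 and was called in 14, and *Slc39a1* falls on both sides of 0.

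The rest of the families held 20 genes, of which 19 matched a target and 12 were tested. None was called by edgeR, 0 at an unadjusted p under 0.05, 0 by DESeq2 and 0 by limma-voom, a tool that called 1.98% of all targets. Their median log2 fold change was 0.06, beside -0.01 over all targets, and their summed level was 620 to 759 CPM after iron citrate and 706 to 799 CPM after buffer. *Slc39a8*, an importer of zinc, manganese and iron, was at 423 ± 62.2 CPM after iron citrate and 486 ± 45.9 CPM after buffer (log2 fold change -0.20, 95% interval -0.53 to 0.13, edgeR adjusted p = 0.47). *Slc39a13*, an importer of the secretory pathway, was at 80.5 ± 12.9 CPM after iron citrate and 88.7 ± 13.6 CPM after buffer (adjusted p = 0.647). *Slc30a9*, a zinc transporter of mitochondria, was at 49.6 ± 9.64 CPM after iron citrate and 34.5 ± 14.9 CPM after buffer (adjusted p = 0.358), and *Slc39a9* was at 35.0 ± 7.93 CPM after iron citrate and 37.4 ± 15.8 CPM after buffer (adjusted p = 0.893; SD, n = 4 each). *Slc39a14*, which carries non-transferrin-bound iron into hepatocytes and is outside the naming rule, was at 5.30 ± 1.30 CPM after iron citrate and 4.26 ± 1.91 CPM after buffer, with a log2 fold change of 0.32 (95% interval -0.56 to 1.20, edgeR adjusted p = 0.68). The brain and skin metallothioneins *Mt3* and *Mt4* had 0 to 3 counts in any library.

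**Figure D4:**
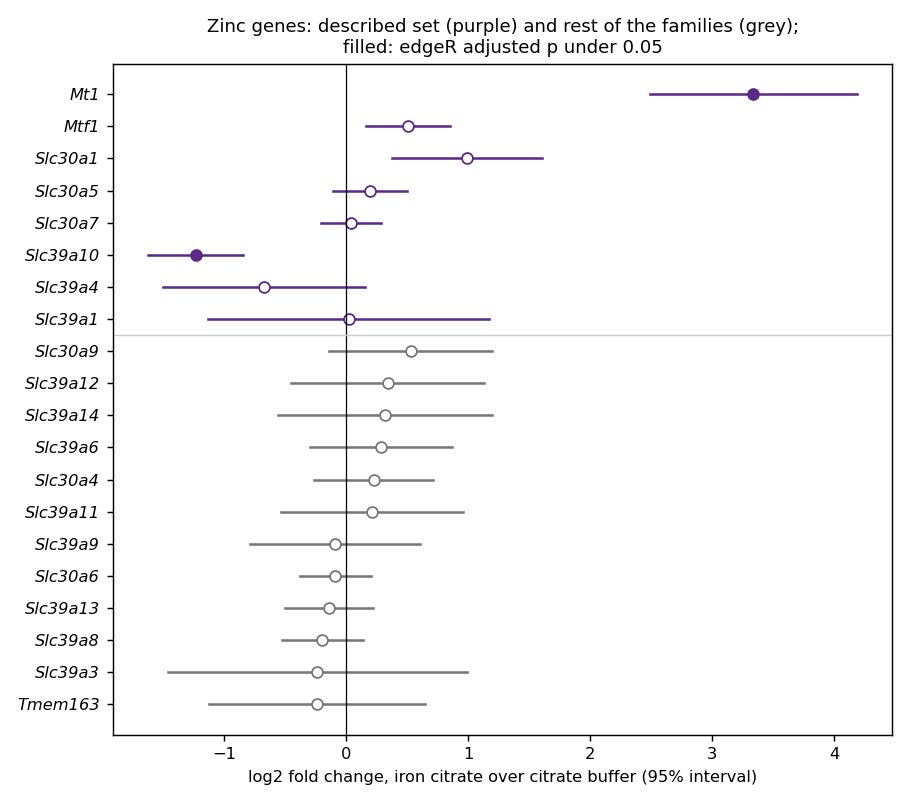
Log2 fold changes, iron citrate over citrate buffer, of the 8 tested genes (purple) and of the 12 other tested family members (grey), with 95% intervals from the edgeR fit (horizontal axis). Filled circles, *Mt1* and *Slc39a10*, had an adjusted p under 0.05, and of the grey intervals all cross 0.

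Other genes reported as MTF1 targets in mouse or human cells were set beside these. Of 8, all matched a target and 7 were tested, 2 were called higher, beside 0.527% of all targets, and none was called lower. At an unadjusted p under 0.05 there were 4, beside 14.6% of all targets, and the groups did not overlap for 3, beside 8.64%. The median log2 fold change of the 7 was 0.83, beside -0.01 over all targets. The 2 were the iron exporter gene *Slc40a1*, at 1356 ± 117 CPM after iron citrate and 212 ± 53.3 CPM after buffer (edgeR adjusted p = 0.000213), and *Gclc*, the catalytic part of glutamate-cysteine ligase, at 313 ± 43.2 CPM after iron citrate and 61.8 ± 8.28 CPM after buffer (adjusted p = 7.22e-05; SD, n = 4 each). Both are also known NRF2 targets. The selenoprotein gene *Selenow*, the most abundant of those not called, was at 601 ± 57.2 CPM after iron citrate and 488 ± 88.5 CPM after buffer (adjusted p = 0.344).

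The profiles most like those of *Mt1* and *Slc39a10* were sought among 11459 other targets with a symbol and a mean of at least 5 CPM. Likeness was the root mean square difference between log2 CPM, each gene centred on its mean over the 8 libraries. The 5 nearest to *Mt1* were the stress protein gene *Osgin1* (0.35 log2 units), the calreticulin paralogue *Calr3* (0.40), the aldehyde oxidase *Aox1* (0.41), the glutathione synthesis subunit *Gclm* (0.42) and the BMP ligand *Bmp6* (0.49). All 5 were called higher, with log2 fold changes between 2.36 and 3.73. Within the set, *Slc30a1* was the gene nearest to *Mt1*, at 1.35 log2 units. Nearest to *Slc39a10* were *Stox2* (0.25), *Spout1* (0.30), *Fndc10* (0.31), *Pik3r2*, a regulatory subunit of phosphoinositide 3-kinase (0.31), and *Tnfsf10*, the death ligand TRAIL (0.31). *Stox2* and *Tnfsf10* were called lower, and the other 3 were not called (edgeR adjusted p between 0.264 and 0.333). These distances describe the same 8 libraries as the fold changes and carry no test.

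**Figure D5:**
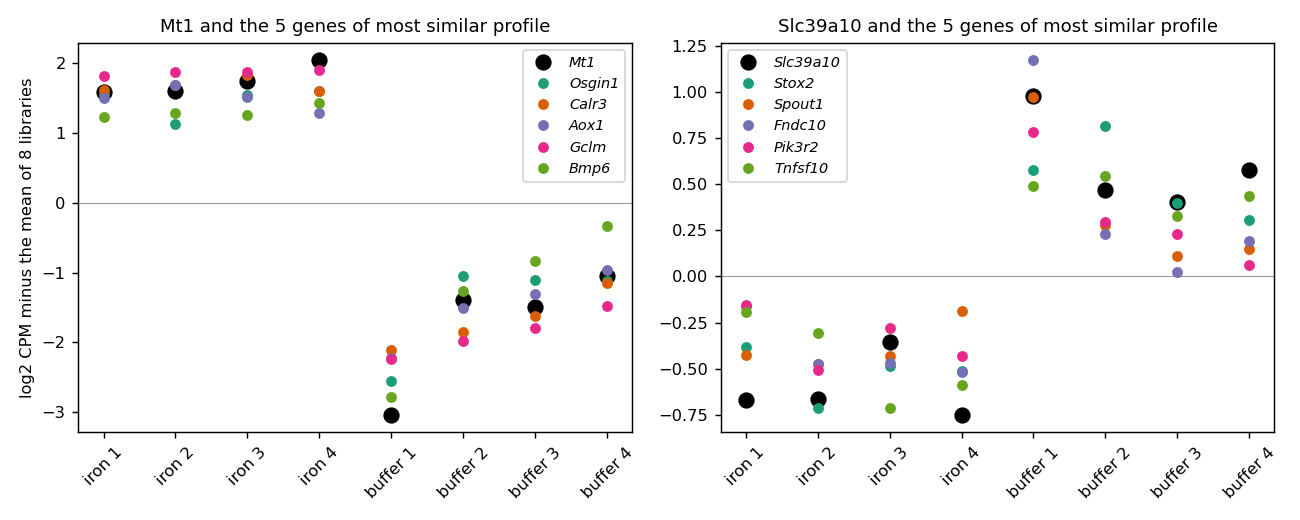
Log2 CPM minus the gene's mean over the 8 libraries (vertical axis) in each library (horizontal axis, iron citrate left of citrate buffer), for *Mt1* (left, black) and *Slc39a10* (right, black) with the 5 genes of most similar profile in colour. Citrate buffer replicate 1 is the lowest point for *Mt1*, at -3.04, and the highest for *Slc39a10*, at 0.98.

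Genes of other routes by which metallothioneins are known to be induced were counted too. Over all targets edgeR called 0.555%, DESeq2 2.5% and limma-voom 1.98%, and 14.6% had an unadjusted p under 0.05. At those shares lists this short can hold no called gene, and the activity of these routes was not tested. Of 10 glucocorticoid-responsive genes none was called by edgeR (2 at an unadjusted p under 0.05, 0 by DESeq2 and 0 by limma-voom), with a median log2 fold change of 0.12. *Sgk1* was at 947 ± 250 CPM after iron citrate and 952 ± 369 CPM after buffer, and *Dusp1* at 521 ± 52.3 CPM after iron citrate and 486 ± 45.7 CPM after buffer (SD, n = 4 each). Among 9 tested acute-phase genes none was called (0 at an unadjusted p under 0.05 and 0 by either other tool), and the median was -0.14. *Lcn2*, the lipocalin of neutrophils and inflamed liver, was at 63.0 ± 9.48 CPM after iron citrate and 74.5 ± 75.2 CPM after buffer, and it was called higher without citrate buffer replicate 1 (log2 fold change 0.76, edgeR adjusted p = 0.0329). *Fgb*, a fibrinogen chain, was at 19.7 ± 12.9 CPM after iron citrate and 26.4 ± 4.50 CPM after buffer. The groups overlapped for all tested glucocorticoid-responsive and acute-phase genes. Of 6 tested heat-shock genes none was called by edgeR (1 at an unadjusted p under 0.05, 1 by DESeq2, the co-chaperone *Bag3*, and 0 by limma-voom). The groups did not overlap for 2 of these 6 heat-shock genes, beside 8.64% of all targets. The median of the 6 was 0.29. *Dnajb1* was at 80.7 ± 20.7 CPM after iron citrate and 77.9 ± 23.1 CPM after buffer, and *Hsph1* at 68.7 ± 22.1 CPM after iron citrate and 51.1 ± 16.4 CPM after buffer.

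Hepatocytes make abundant metallothionein, and transcripts known as hepatocyte markers were counted in the sort in both groups. The source of these transcripts was not tested. The 10 measured hepatocyte markers summed to 381 to 783 CPM after iron citrate and 481 to 890.5 CPM after buffer, ranges that overlap. Each of the 10 had counts in at least 1 library. None was called (0 at an unadjusted p under 0.05 and 0 by either other tool), and *Alb* was at 319 ± 107 CPM after iron citrate and 458 ± 152 CPM after buffer (SD, n = 4 each). Neutrophil markers summed to 217 to 261 CPM after iron citrate and 121 to 446 CPM after buffer, with 446 CPM in citrate buffer replicate 1 and at most 172 CPM in the other 3 buffer libraries. None of 8 tested was called in all libraries (1 at an unadjusted p under 0.05, 0 by DESeq2, 1 by limma-voom). Without citrate buffer replicate 1, 3 were called higher, *Retnlg*, *S100a8* and *S100a9*, in the fit that called 1.76% of all targets in either direction. The part of hepatocyte or neutrophil RNA in the *Mt1* value was not tested. *Retnlg*, *S100a8* and *Bag3* are outside the naming rule and are named after their values were seen. No tested marker was called among Kupffer cells and macrophages (10 tested), stellate cells (12), T or NK cells (8), B or plasma cells (7), cholangiocytes (4), erythroid cells (2) and platelets (4), with 0 called by DESeq2 and by limma-voom. At an unadjusted p under 0.05 there were 2 erythroid markers and 0 in the other 6 lists, beside 14.6% of all targets. The median log2 fold changes of these 7 lists were 0.52, 0.38, -0.21, 0.26, 0.55, 0.35 and 0.02, in the order named.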

How the data were processed

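The authors deposited whole-number read counts per RefSeq target, 1 file per library. The submitters' processing notes name HTSeq 0.6.0 and DESeq2 1.18.1. For the counts, neither aligner nor genome build is stated (not given in the sources used here). HTSeq's summary lines, 2.15% to 4.60% of a file's reads, were left out. RefSeq accessions gave symbols for 22562 of 23930 targets, 18128 with the version, 4324 without it and 110 through GENCODE. Listed genes were then looked up by exact symbol, since *Mt2* is also a synonym of the melatonin receptor gene *Mtnr1b*.

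The counts were tested with edgeR 4.0.16 in R 4.3.3 (filterByExpr, TMM factors, robust quasi-likelihood F-test, group as the only term). Standard errors came from the F statistic, and 95% intervals from it and the fit's degrees of freedom. CPM used TMM-scaled library sizes, and log2 CPM a prior count of 2. Amplicon reads carry no molecular identifiers, so the limit of 3 counts covers counting error only. Whether the mice were otherwise independent is not stated, and p-values reflect the spread between these libraries. Pairs of libraries within a group differed by more than sampling noise (chi-square per degree of freedom of at least 8.75).

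The members, the lists and the tests were chosen with earlier results of these data known. Text names all members, called or the most abundant genes of 17 other lists (10 of cell type markers), and the 5 nearest profiles. The 18 alternatives were RLE (relative log expression), upper-quartile or no factors, DESeq2 1.42.0, limma-voom 3.58.1 with sample weights, no filter, a floor of 5 on the mean CPM, a replicate block, each library left out, citrate buffer replicates 1 and 2 left out, and, chosen after seeing the data, the silent-family covariate. Figures were made with Python 3.11.15 and matplotlib 3.10.9.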

Additional observations from a re-analysis of the deposited data

Results flagged for a closer look

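In the 8 tested genes and the 12 other tested family members, each group of 4 libraries was searched for a highest or lowest library far from the rest. None of the 40 groups held a gap to the next library above Dixon's 95% critical value for 4 samples.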

How the results depend on the processing

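The number of genes called over all targets was 81, and it was 365 with DESeq2, 289 with limma-voom, 327 with the silent-family covariate and 281 without citrate buffer replicates 1 and 2. Leaving out 1 library gave 46 to 259, with 259 without citrate buffer replicate 1 and 46 to 51 when the library left out was citrate buffer replicate 2, citrate buffer replicate 3 or an iron citrate one. *Mt1* kept its call in all 18 alternatives. Of the set, 1 to 2 genes were called when 1 library was left out, and *Slc39a10*, at log2 fold changes of -1.32 to -1.09, lost its call without iron citrate replicate 1, 2 or 4. Among the other family members *Slc39a9* was called lower (-0.54, 1 gene) with the covariate, and in the other 17 alternatives none was called. Signs turned for 2 genes that were not called. *Slc30a7* was at -0.0761 with upper-quartile factors, -0.0637 with library totals, -0.0256 with the covariate and -0.00981 to 0.0698 when 1 library was left out (lowest without citrate buffer replicate 1). *Slc39a1* was at -0.0088 with relative log expression factors, -0.0528 with upper-quartile factors, -0.0337 with library totals, -0.00991 with DESeq2, -0.21 with limma-voom, -0.53 with the covariate, -0.62 without citrate buffer replicates 1 and 2 and -0.30 to 0.38 when 1 library was left out, and could not be fitted at a mean CPM of at least 5. The cause was not tested. Upper-quartile factors put the median of all targets at -0.12, against -0.01.

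The sample titles do not state whether replicate numbers pair the samples, and so few correlations cannot settle it. The correlations of same-numbered deviations from the group means were -0.000298, 0.176, 0.609 and -0.315, and 2 of 8 libraries correlated best with their own number. With the replicate block 43 genes were called over all targets and 1 in the set, *Mt1*, and *Slc39a10* was at -1.22 (edgeR adjusted p = 0.0723). *Slc30a10*, at 0 or 1 counts in each library, had too few counts for a fold change, and the reason was not tested.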

Other observations

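Genes of other divalent metals were counted as well. Over all targets edgeR called 0.555%, and 14.6% had an unadjusted p under 0.05. Of 11 tested genes of copper handling none was called by edgeR (0 at an unadjusted p under 0.05, 0 by DESeq2 and 0 by limma-voom), and the median log2 fold change was 0.13. The copper importer gene *Slc31a1* was at 170 ± 15.4 CPM after iron citrate and 187 ± 48.8 CPM after buffer, and its relative *Slc31a2* at 126 ± 17.2 CPM after iron citrate and 147 ± 25.6 CPM after buffer (SD, n = 4 each). Of 12 tested genes of manganese and other divalent metal transport none was called (0 at an unadjusted p under 0.05, 0 by either other tool), with a median of 0.12. *Atp2c1*, the calcium and manganese pump of the Golgi, was at 182 ± 24.9 CPM after iron citrate and 143 ± 25.9 CPM after buffer (edgeR adjusted p = 0.333), and *Tmem165*, a Golgi manganese transporter, at 155 ± 5.50 CPM after iron citrate and 143 ± 18.2 CPM after buffer (edgeR adjusted p = 0.615).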
